A study of Mus musculus with 6 samples.

Results

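Eef1a1, Eef1a2, Rpl3 and Rpl3l are 4 genes of the translation machinery that form 2 pairs of paralogs, and they were taken by symbol from the 23367 gene entries of an RNA-seq series on developing mouse skeletal muscle. Each symbol matched 1 entry, and all 4 passed the filter on low counts that left 16882 genes for testing. The tissue was gastrocnemius, the large calf muscle, of wild-type FVB mice, and no group carried an engineered allele or received a treatment. There were 6 poly(A) RNA libraries: 1 for E18.5 (male and female embryos pooled), 1 for PN2 (male), 2 for PN14 (male, replicates 1 and 2), 1 for PN28 (male) and 1 for adult at 22 weeks (male), where PN is the postnatal day. The E18.5 and PN2 libraries were made from RNA of several mice and the others from single mice, so pooling and the sex mix at E18.5 cannot be told apart from stage, and neither can the sequencing lane, which differed for every library.

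The eEF1A protein, which Eef1a1 and Eef1a2 both encode, is the GTPase that carries aminoacyl-tRNA to the ribosome during elongation. Eef1a1 is used in most cell types, whereas Eef1a2 is the form of adult skeletal muscle, heart and neurons, and mice that lack Eef1a2 lose muscle mass and motor neurons after weaning. Rpl3 encodes uL3, a core protein of the large ribosomal subunit that reaches towards the peptidyl transferase centre, and Rpl3l encodes its paralog, known from skeletal muscle and heart.

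Libraries held between 125402932 and 157868359 counts on genes. The summed level of 14 muscle fibre markers ran from 29276 to 131304 FPKM (fragments scaled to gene length and to the library total), and no marker of that list was at or under 3 counts in any library. Since Eef1a2 is also a gene of neurons and heart, markers of both were read. The 8 neuronal genes, among them Rbfox3, Snap25 and Chat, summed to 5.76 FPKM at E18.5, 2.55 at PN2 and 0.13 to 0.2 in the later libraries. In each library 2 to 4 of the 8 were at or under 3 counts. The 6 heart muscle genes summed to 14 to 52.6 FPKM with no order along the stages. Myh6 made up most of that sum, at 13.05 to 51.26 FPKM, and up to 3 of the 6 were at or under 3 counts in a library.

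In the mm9 genome with GENCODE M1 annotation, Eef1a1 lies on the minus strand at chr9:78326256-78336958 and Eef1a2 on the minus strand at chr2:180882358-180891719, each with 8 exons in the transcript used here. Rpl3 lies on the minus strand at chr15:79908211-79913836 and Rpl3l on the plus strand at chr17:24864774-24873094, each with 10 exons. The first 60 coding bases of each gene (mm9, 5′ to 3′) show how far reads of a pair can be separated, and capitals mark the bases that differ between the members of a pair.
Eef1a1: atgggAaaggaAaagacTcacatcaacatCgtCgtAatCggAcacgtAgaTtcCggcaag
Eef1a2: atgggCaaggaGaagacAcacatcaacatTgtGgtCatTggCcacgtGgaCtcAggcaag
Rpl3: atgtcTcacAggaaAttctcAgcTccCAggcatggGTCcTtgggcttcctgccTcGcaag
Rpl3l: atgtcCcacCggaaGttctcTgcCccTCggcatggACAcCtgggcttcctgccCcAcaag
In this stretch the Eef1a genes differed at 11 bases, all of them the last base of a codon, and the Rpl3 genes at 13 bases, of which 7 were the last base of a codon. Over the whole coding sequence, Eef1a1 and Eef1a2 shared 1113 of 1389 aligned bases (80.1%) and encoded the same residue in 427 of 462 aligned codons (92.4%). Rpl3 and Rpl3l were further apart, with 899 of 1209 bases (74.4%) and 310 of 402 codons (77.1%). The longest identical run was 23 bases in the first pair and 22 in the second, and neither pair shared an identical window of 100 bases, which is the length of a read, so the members of a pair were separable by sequence.

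The broadly used genes differed from the muscle paralogs in how often the genome repeats them. Copies that covered at least 80% of the coding sequence at 90% identity or more were found at 13 other places on 10 chromosomes for Eef1a1 and at 22 on 8 chromosomes for Rpl3, and at 0 for Eef1a2 and 0 for Rpl3l. Of the 100-base windows of coding sequence, 34.4% for Eef1a1 and 89.3% for Rpl3 occurred elsewhere in the genome, against 0 for either paralog. How the deposited counts divide such reads is not given in the sources used here, so the absolute levels of Eef1a1 and above all Rpl3, and with them the size of the ratios to their paralogs, are uncertain.

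Promoter sequences of RefSeq (GRCm38.p6) were matched for 3 of the genes, Eef1a1, Eef1a2 and Rpl3l. The 100 bases before the start are shown because 2 of these genes rose and the other did not: chr9:78481725-78481824 on the minus strand for Eef1a1, chr2:181157016-181157115 on the minus strand for Eef1a2 and chr17:24727726-24727825 on the plus strand for the first of 2 listed Rpl3l starts. Capitals mark a GC box (GGGCGG, here on the other strand as CCGCCC) or an E-box of the CAGCTG or CACCTG kind (the latter here as CAGGTG).
Eef1a1: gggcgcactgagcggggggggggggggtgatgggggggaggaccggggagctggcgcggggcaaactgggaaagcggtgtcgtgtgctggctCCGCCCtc
Eef1a2: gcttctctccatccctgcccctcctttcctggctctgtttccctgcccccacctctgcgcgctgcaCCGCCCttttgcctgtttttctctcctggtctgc
Rpl3l: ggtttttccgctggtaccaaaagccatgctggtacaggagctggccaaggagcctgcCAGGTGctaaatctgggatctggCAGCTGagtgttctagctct
In the full windows, from 250 bases before the start to 50 after it, Eef1a1 held GGGCGG at 191 and 8 bases before the start and Eef1a2 at 34 bases before it, a motif found on either strand in 35.7% of the 32851 promoter windows used here. CAGCTG, the core of many sites of muscle bHLH factors, lay 43 bases after the Eef1a2 start and 20 before the first Rpl3l start. It was found in 16.3% of all windows. CACCTG lay at 145 and 43 bases before the first Rpl3l start, and was found in 20.2% of all windows. The window of the second Rpl3l start held none of the motifs searched. No window of these genes held TATAAA (13.6% of all windows), CATTCCT (5.4%) or CTAAAAATA (0.5%).

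Eef1a1 was one of the most abundant transcripts before and just after birth. Its level was 4847.58 FPKM at E18.5, 4378.12 at PN2, 527.63 in the first and 998.21 in the second PN14 replicate, 453.78 at PN28 and 247.58 in adult muscle. It ranked 7 among all entries at E18.5 and PN2, 112 and 54 at PN14, 121 at PN28 and 261 in adult muscle, and its share of all counts on genes went from 0.842% at E18.5 to 0.043% in the adult. Every library from PN14 on lay below both perinatal libraries, and the highest and lowest libraries were 19.6-fold apart.

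Eef1a2 ran the other way. Its level was 31.48 FPKM at E18.5, 75.34 at PN2, 823.9 and 797.99 at PN14, 744.88 at PN28 and 793.99 in adult muscle. The 4 libraries from PN14 on lay in a narrow band far above the perinatal ones, and the highest and lowest libraries were 26.2-fold apart. In rank Eef1a2 moved from 2206 at E18.5 and 898 at PN2 to 66 and 76 at PN14, 60 at PN28 and 44 in adult muscle.

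Rpl3 followed Eef1a1 at a lower level. It was 813.86 FPKM at E18.5, 668.42 at PN2, 93.16 and 177.04 at PN14, 79.23 at PN28 and 44.12 in adult muscle, a span of 18.4-fold with the same order of libraries as for Eef1a1. Its rank went from 97 at E18.5 to 1228 in the adult.

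Rpl3l had the widest span of the 4 genes, 63.9-fold. It was 5.85 FPKM at E18.5, 14.42 at PN2, 319.43 and 373.8 at PN14, 285.97 at PN28 and 330.24 in adult muscle. Its rank was 8165 at E18.5, 4648 at PN2, and between 181 and 223 in all libraries from PN14 on. The values rested on 61397 to 1329478 counts per library for Eef1a1, 9915 to 239598 for Eef1a2, 8239 to 168059 for Rpl3 and 1185 to 74058 for Rpl3l, so depth does not limit any of these levels. In bulk muscle RNA, fewer cells of a type and less RNA per cell cannot be told apart.

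**Figure D1:**
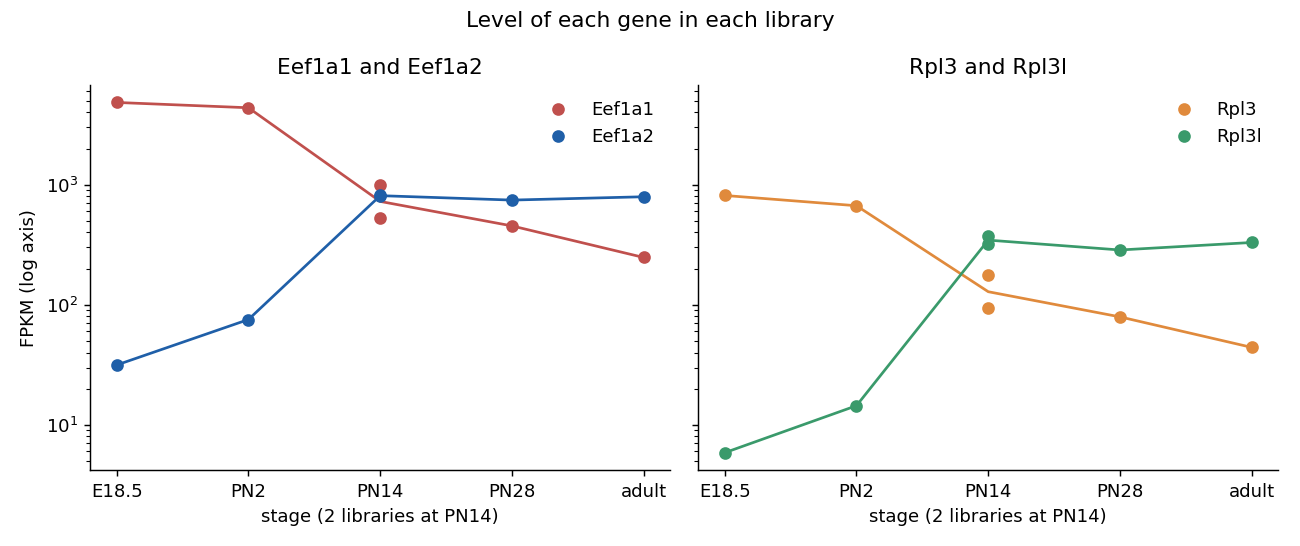
Level of Eef1a1 and Eef1a2 (left) and of Rpl3 and Rpl3l (right) in FPKM on a log axis by stage, with 1 point per library and lines through the geometric mean of each stage. The broadly used genes are lowest in the adult at 247.58 and 44.12 FPKM, and both paralogs are near their highest level from PN14 on.

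The PN14 pair is the only measure of spread between animals in these data. The broadly used genes varied more within it than the paralogs: Eef1a1 was 763 ± 333 FPKM and Rpl3 135 ± 59.3, each higher in replicate 2, by 1.89-fold and 1.90-fold. Eef1a2 was 811 ± 18.3 FPKM and Rpl3l 347 ± 38.4 (SD, n = 2 each), with the replicates 1.03-fold and 1.17-fold apart. Part of the FPKM gap was shared with other ribosomal protein genes, whose replicate 2 to replicate 1 ratio had a median of 1.42 over 46 large-subunit genes (range 0.991 to 1.56). After TMM scaling, which sets libraries to a common level of most genes, that median was 1.19 and replicate 2 was still 1.58-fold higher for Eef1a1 and 1.59-fold for Rpl3. On that scale Eef1a2 was 1.24-fold higher in replicate 1, and the Rpl3l replicates were 1.02-fold apart. Replicate 2 also had the lower summed muscle fibre markers (96874 against 123475 FPKM) and the higher fibroblast markers (2140 against 1778) and Schwann cell markers (884 against 225), and their part in the gap was not tested.

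The question of when the genes changed was put to edgeR's quasi-likelihood test on the counts, with Benjamini-Hochberg adjustment over all 16882 genes, and genes with an adjusted p under 0.05 and a change of 2-fold or more were called. With 1 library at 4 of the 5 stages, the test takes its spread from the PN14 pair and from the other genes. Its p-values rest on the assumption that this spread holds at every stage, which these libraries cannot check. Log2 fold changes below are later over earlier stage, on TMM-scaled counts, with the standard error.

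From PN2 to PN14 both paralogs rose and Rpl3 fell. Eef1a2 rose 17.1-fold, a log2 fold change of 4.10 ± 0.564, with an adjusted p of 0.00746 in edgeR's test. Rpl3l rose 38.1-fold, at 5.25 ± 0.375 on the log2 scale (edgeR adjusted p = 0.00301). They stood at positions 138 and 68 from the top of all tested genes by fold change. Rpl3 fell 3.21-fold, at -1.68 ± 0.347 (edgeR adjusted p = 0.019). Eef1a1 was 3.72-fold lower at PN14, at -1.90 ± 0.583, and was not called (edgeR adjusted p = 0.0545). It was called when genes with low counts were kept (adjusted p = 0.0271), when libraries were scaled by size alone (2.66e-16), and with DESeq2's Wald test (4.66e-08) or edgeR's exact test (1.3e-05). So 3 of the 4 genes were called over an interval in which 23.0% of all tested genes were, 2 of them among the 11.8% that rose and 1 among the 11.2% that fell.

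The other intervals gave no call for any of the 4 genes. From E18.5 to PN2 the paralogs were already higher, Eef1a2 by 1.26 ± 0.528 on the log2 scale (edgeR adjusted p = 0.772) and Rpl3l by 1.33 ± 0.331 (adjusted p = 0.398), while Eef1a1 differed by -0.15 and Rpl3 by -0.28. Few genes of any kind passed there, 0.0296% of those tested, and DESeq2's Wald test did call both paralogs, with adjusted p values of 0.013 and 0.00305. From PN14 to PN28, where 0.0178% of genes were called, the paralogs differed by 0.10 and -0.04 and the broadly used genes by -0.49 for Eef1a1 and -0.51 for Rpl3, with edgeR adjusted p values from 0.72 to 0.976. From PN28 to adult, with 0.521% called, Eef1a1 was at -0.74 ± 0.704 and Rpl3 at -0.71 ± 0.419, Eef1a2 at 0.23 ± 0.52 and Rpl3l at 0.34 ± 0.323, with adjusted p values from 0.432 to 0.857. The edgeR test thus did not separate these neighbouring stages for any of the genes, which does not show that their levels were alike.

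**Figure D2:**
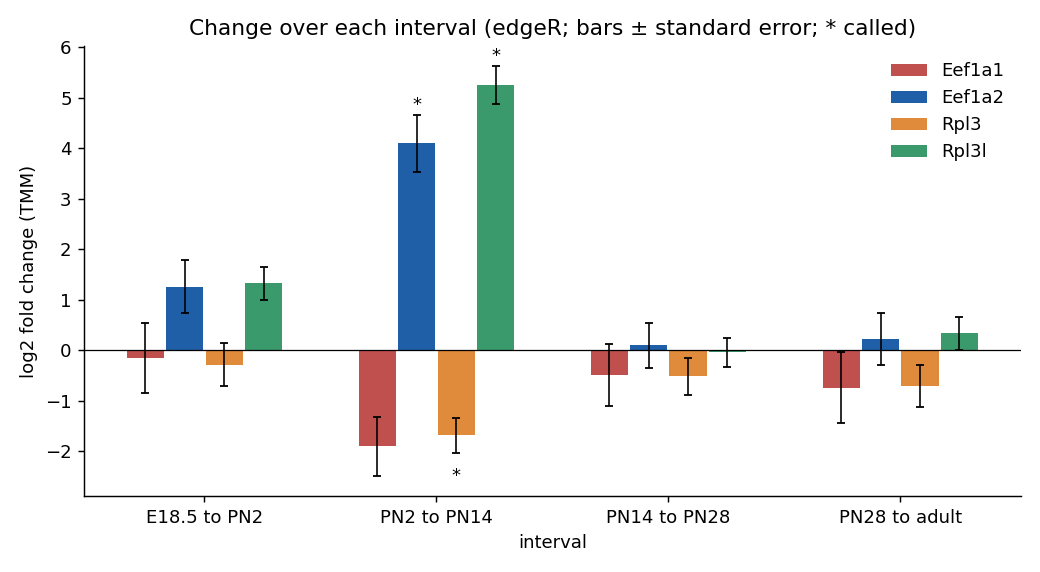
Log2 fold change of each gene over the 4 consecutive intervals on TMM-scaled counts, with bars for the edgeR estimate, whiskers for its standard error and an asterisk for a call. The rise of Eef1a2 (4.10) and Rpl3l (5.25) from PN2 to PN14 is the tallest pair of bars, and Rpl3 (-1.68) is the called decrease.

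Over the whole period all 4 genes were called. From E18.5 to adult, Rpl3l rose 118-fold (6.88 ± 0.418 on the log2 scale, edgeR adjusted p = 0.00115) and Eef1a2 51.3-fold (5.68 ± 0.636, adjusted p = 0.00183). Eef1a1 fell 9.62-fold (-3.27 ± 0.764, adjusted p = 0.0147) and Rpl3 9.06-fold (-3.18 ± 0.453, adjusted p = 0.00298). Of all genes tested, 44.9% were called over this span, and by fold change Rpl3l and Eef1a2 ranked 75 and 147 from the top. From PN2 to PN28, where 27.0% were called, Rpl3l (5.21 ± 0.387), Eef1a2 (4.19 ± 0.592) and Rpl3 (-2.19 ± 0.435) were called again and Eef1a1 (-2.38 ± 0.737, edgeR adjusted p = 0.0536) was not. With library size alone in place of TMM, the median of all genes moved from -0.054 to -1.079 between E18.5 and adult and from -0.012 to -0.662 between PN2 and PN14, and each decrease became larger and each rise smaller by about that much.

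A ratio of paralogs within 1 library does not depend on scaling between libraries. The FPKM ratio of Eef1a2 to Eef1a1 was 0.00649 at E18.5, 0.0172 at PN2, 1.56 and 0.799 at PN14, 1.64 at PN28 and 3.21 in adult muscle. Eef1a1 thus exceeded Eef1a2 by 154-fold at E18.5, the replicates at PN14 lay on either side of equality, and Eef1a2 was the more abundant at PN28 and in the adult. As a share of the summed eEF1A transcripts, Eef1a2 was 0.645% at E18.5, 1.69% at PN2, 61.0% and 44.4% at PN14, 62.1% at PN28 and 76.2% in adult muscle.

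The ratio of Rpl3l to Rpl3 was 0.00719 at E18.5, 0.0216 at PN2, 3.43 and 2.11 at PN14, 3.61 at PN28 and 7.49 in adult muscle. Both PN14 replicates were already past equality, unlike for the other pair. Rpl3l made up 0.714% of the summed pair at E18.5, 2.11% at PN2, 77.4% and 67.9% at PN14, 78.3% at PN28 and 88.2% in adult muscle.

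From PN2 to PN14 the Eef1a2 to Eef1a1 ratio shifted 64.9-fold (6.02 on the log2 scale) and the Rpl3l to Rpl3 ratio 125-fold (6.96), against differences of 0.97 and 0.70 between the PN14 replicates. That interval held 67.3% of the whole log2 shift from E18.5 to adult for the first pair and 69.5% for the second. The interval before it held 15.7% and 15.8%, and the 2 after it together the rest. The intervals differ in length, so a larger share does not by itself mean a faster shift per day. The paralog's own rise made up 68.3% of the PN2 to PN14 shift in the Eef1a pair and 75.7% in the Rpl3 pair on TMM-scaled counts. Under library size alone these shares were 57.6% and 66.6%. From PN28 to adult the ratios shifted by 0.97 and 1.05 on the log2 scale, of which the paralog gave 23.7% and 32.8% with TMM and 9.46% and 19.7% with library size alone. The first of these shifts was about as large as the difference between the PN14 replicates, and none of the 4 genes was called in that interval. The ratios themselves are given as descriptions and were not tested.

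Other pairs of translation genes in which a broadly used member has a close relative showed smaller shifts from PN2 to PN14 and over the whole period. Over 10 such pairs, the change in log2 ratio from PN2 to PN14 ran from -1.67 (Gspt2 to Gspt1, termination factors) to 2.84 (Rps27l to Rps27), with a median size of 1.33. The Rps27l pair rested on Rps27, which was 1.05 and 15.34 FPKM in the PN14 replicates. From E18.5 to adult the range was -2.66 to 4.68, against 8.95 and 10.02 for the Eef1a and Rpl3 pairs. From PN14 to PN28, however, the Rps27l pair (1.90) and the pair of Pabpc4 (0.80) shifted more than the Eef1a pair (0.56) and the Rpl3 pair (0.42), and from PN28 to adult the Rps27l pair (-0.98) shifted by a like size in the other direction. An 11th pair, with Rpl10l, had a library at or under 3 counts and was left out.

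**Figure D3:**
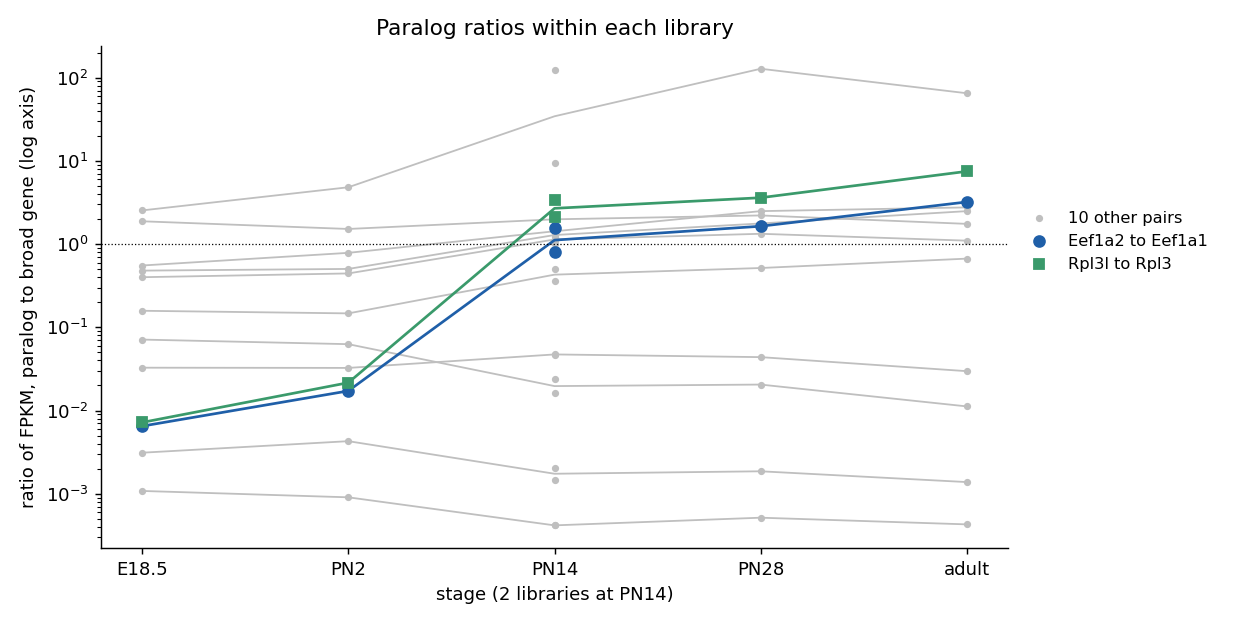
FPKM ratio of the paralog to the broadly used gene on a log axis by stage, with 1 point per library, lines through the geometric mean of each stage, and the dotted line at equality. Eef1a2 to Eef1a1 goes from 0.00649 to 3.21 and Rpl3l to Rpl3 from 0.00719 to 7.49, while the 10 other pairs, in grey, move less from E18.5 to adult.

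Rpl3 was set beside the other genes of the ribosome. From PN2 to PN14, 23.0% of all tested genes were called in edgeR's test. Among 46 other large-subunit genes 0 were called, with a median log2 fold change of -0.18 and a range from -0.49 (Rpl36a) to 0.52 (Rpl34). Among 32 small-subunit genes 0 were called, with a median of -0.32 and a range from -0.98 (Rps27) to 0.45 (Rps2). Rpl3, at -1.68, lay below all 78 of them. With library size alone, 7 large-subunit and 14 small-subunit genes were called lower, at medians of -0.82 and -0.96, and Rpl3 stood at -2.31. The median of all tested genes was itself -0.662 in that setting, so these counts are not read as a result about the ribosome.

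Over later intervals Rpl3 kept to the low end. It lay below all 46 large-subunit genes from PN14 to PN28 (-0.51 against a median of -0.12) and from PN28 to adult (-0.71 against 0.27), although neither change was called. Of the 32 small-subunit genes, Rps27 (-1.96) lay below Rpl3 from PN14 to PN28, and 0 did from PN28 to adult. From E18.5 to PN2, Rpl3 lay within the range of the large-subunit genes, with 11 of 46 below it. From E18.5 to adult, where 44.9% of all tested genes were called, Rpl41 (-1.07) was the only other large-subunit gene called. Rps19 (-1.19) was the only small-subunit gene called, and both were lower, against -3.18 for Rpl3. Rps27 was not called, but at -2.92 its estimate was close to that of Rpl3. Under library size alone, where the median of all tested genes was -1.079, 37 large-subunit and 29 small-subunit genes were called lower.

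**Figure D4:**
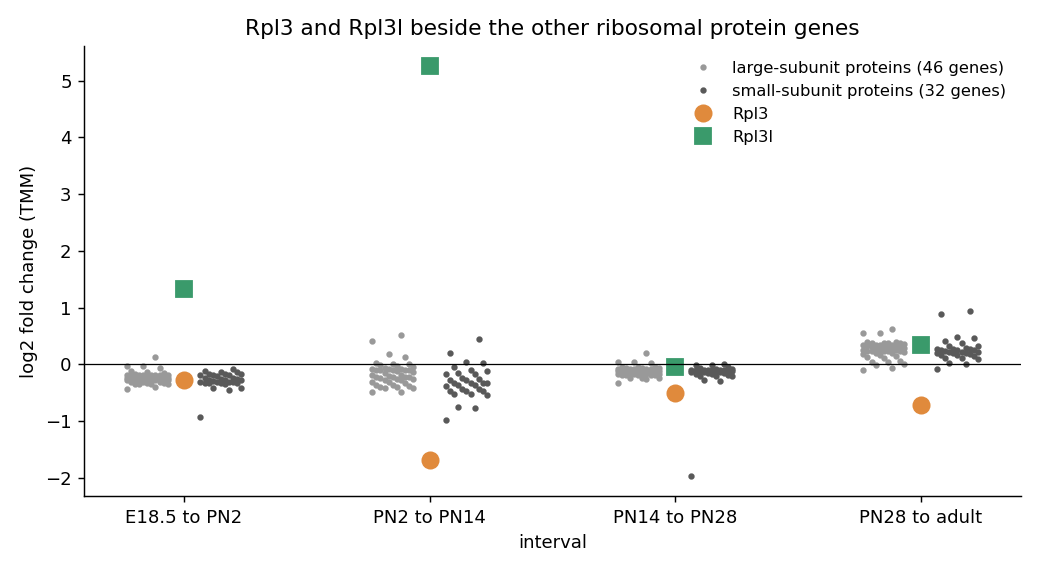
Log2 fold change on TMM-scaled counts over each consecutive interval, for 46 large-subunit genes (light dots), 32 small-subunit genes (dark dots), Rpl3 (circle) and Rpl3l (square). From PN2 to PN14 Rpl3 (-1.68) and Rpl3l (5.25) lie below and above all 78 other genes, and the lowest small-subunit dot up to PN28 is Rps27.

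Relative to the other large-subunit genes of the same library, Rpl3l came to stand where Rpl3 had been. Rpl3 was 1.02 times the median FPKM of the 46 genes at E18.5, 0.952 at PN2, 0.30 and 0.392 at PN14, 0.279 at PN28 and 0.148 in adult muscle. Rpl3l was 0.00735 times that median at E18.5, 0.0205 at PN2, 1.03 and 0.827 at PN14, 1.01 at PN28 and 1.10 in adult muscle. Their sum stayed between 0.973 and 1.33 times the median in all 6 libraries, while Rpl3 itself was exceeded by 22 of the 46 genes at E18.5 and by 43 in the adult. The level of Rpl3 is uncertain because of its genome copies, and so are its multiples of the median and the sum. Copies of the 46 other genes were not searched.

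The summed level of Eef1a1 and Eef1a2 was 4879 FPKM at E18.5, 4453 at PN2, 1352 and 1796 at PN14, 1199 at PN28 and 1042 in adult muscle. Set against Eef2, the translocase that works in the same elongation cycle, the sum was 6.58 at E18.5, 5.82 at PN2, 3.95 and 4.30 at PN14, 3.23 at PN28 and 1.86 in adult muscle. Against Eef1g, a subunit of the exchange factor that reloads eEF1A with GTP, it was 7.14 at E18.5 and 2.75 in the adult. Against Eef1b2, the catalytic subunit of that factor, it stayed between 11.9 and 15.2 in all libraries. Against Eef1d, another subunit of the exchange factor, it was 54.6 at E18.5 and 17.8 in the adult. The sum was thus lower in the adult than at E18.5 by a wide margin against Eef2, Eef1g and Eef1d, and by little against Eef1b2, which itself fell over that span.

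**Figure D5:**
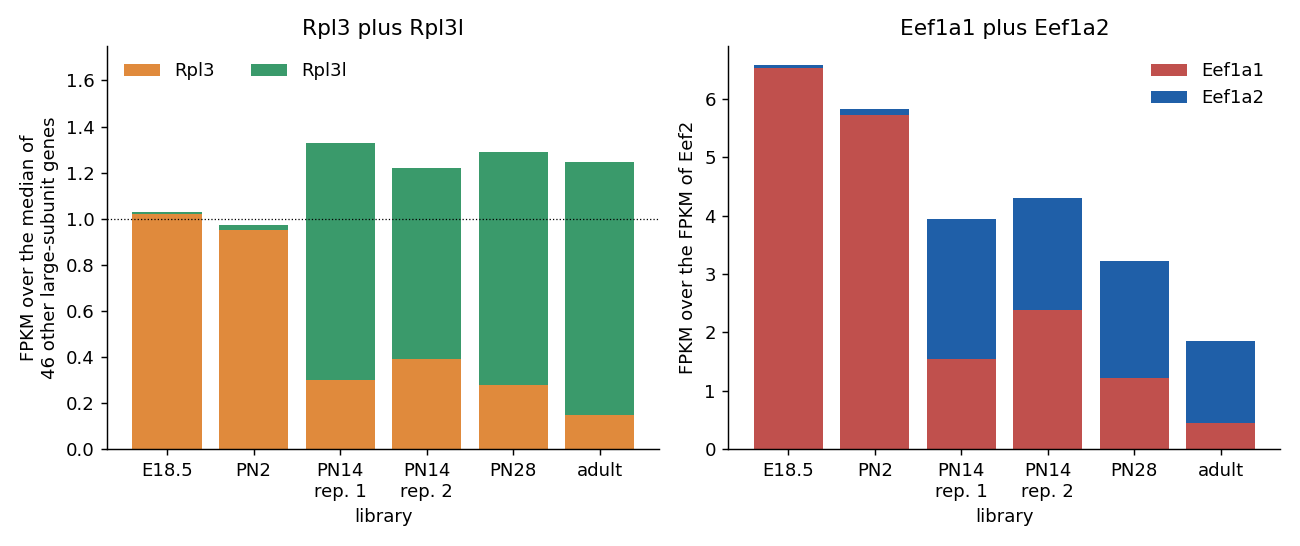
Stacked FPKM of Rpl3 and Rpl3l over the median of 46 other large-subunit genes (left, dotted line at 1) and of Eef1a1 and Eef1a2 over Eef2 (right) in each library. The Rpl3 plus Rpl3l stack stays between 0.973 and 1.33, and the eEF1A stack goes from 6.58 at E18.5 to 1.86 in the adult.

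Other elongation factors moved little beside the Eef1a genes. Of 11 listed, 0 were called from PN2 to PN14 in edgeR's test, where 23.0% of all tested genes were. Their log2 fold changes ran from -0.86 for Eef1b2 to 0.93 for Hbs1l, a GTPase of stalled ribosome rescue. From E18.5 to adult, where 44.9% of all tested genes were called, Hbs1l rose (1.21) and Eef1b2 fell (-1.13). Under library size alone, 3 of the 11 were called lower from PN2 to PN14. The list's median went from 0.32 to -0.35 and that of all tested genes from -0.012 to -0.662, so no direction can be given for the list. Of 12 tested genes in a list drawn up for enzymes and partners of eEF1A and eEF2, 1 was called from PN2 to PN14. This was Mettl21c, a lysine methyltransferase of muscle, which rose by 1.74, and from E18.5 to adult by 4.36 (5.23 to 52.7 FPKM). These data do not show that Mettl21c acts on eEF1A or eEF2. From E18.5 to adult N6amt2, now known as an eEF1A lysine methyltransferase, rose by 1.20 and Sphk1, a sphingosine kinase that eEF1A binds, fell (-1.61). Grwd1, a chaperone of newly made uL3, was not called in any comparison, at 0.17 from PN2 to PN14. Mettl18, which methylates a histidine of uL3, was at 0.49 there and was called higher from E18.5 to adult (1.12).

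Genes of initiation, termination and ribosome assembly were read beside the 23.0% of all tested genes called from PN2 to PN14 and the 44.9% called from E18.5 to adult. From PN2 to PN14, 2 of 39 initiation factors rose, the cap-binding protein gene Eif4e3 (1.88) and the exchange factor gene Eif2b4 (1.26). The termination factor gene Gspt2 fell (-1.37) as 1 of 5, and Nop58, of the box C/D snoRNPs, fell (-1.01) as 1 of 30 assembly genes. From E18.5 to adult 12 of the 39 initiation factors rose, led by Eif4e3 (2.78), Eif1 (2.22) and the translation repressor gene Eif4ebp2 (2.06), and Eif4a1 fell (-1.16). Over that span 5 of the 30 assembly genes rose, among them Taf1c (1.32), and 3 fell, Nop58 (-1.33), Fbl (-1.22) and Npm1 (-1.20). Under library size alone, where the median of all tested genes was -1.079, it was 0 and 11, with 3 initiation factors rising and 7 falling.

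The genes whose course over the 6 libraries was most like that of each of the 4 were ranked by the root mean square difference of log2 TMM-scaled CPM (counts relative to the scaled library total), each gene centred on its own mean, among 9916 genes with at least 10 CPM in some library. For Eef1a1 they were Pdk3 (0.0589), H2afy2, Farp1, Tubb6 and, in place 5, Rpl3 (0.0787). For Rpl3 they were Farp1, Eef1a1 in place 2, Tubb6, Pdk3 and Fzd2. A difference of 0.0787 compares with a spread of 1.22 in Eef1a1 itself. The likeness held although the levels differed, Pdk3 for example being 14.38 FPKM at E18.5 and 0.76 in the adult.

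The paralogs were less alike. The genes nearest to Eef1a2 were Mapt (0.127), Extl1, Ddit4l, Kcna7 and Me3, with Rpl3l in place 31 (0.544). Those near to Rpl3l included Hr (0.349), Mybpc2, Apol6 and Myh1 (0.439), with Eef1a2 in place 12. Mybpc2 and Myh1 encode sarcomere proteins of fast fibres. These rankings describe 6 libraries and carry no test.

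Markers of other cell types also differed along the stages. The summed fibroblast markers were 7090 FPKM at E18.5, 5794 at PN2, 1778 and 2140 at PN14, 1902 at PN28 and 519 in adult muscle, and satellite cell markers went from 74.4 at E18.5 to 8.12 in the adult, both in the direction of Eef1a1 and Rpl3. On TMM-scaled counts all 7 fibroblast genes were lower from PN2 to PN14, and 1 was called. From PN14 to PN28, 5 were higher and 2 lower. From E18.5 to adult, where 44.9% of all tested genes were called, 6 were called lower and 1 was higher. Erythroid markers (8937 to 393 FPKM), bone and cartilage markers (112 to 0.2) and macrophage markers (71.5 to 22.6) were also lower in the adult than at E18.5. These sums are not TMM-scaled, and under library size alone the median of all tested genes was -1.079 over that span. On TMM-scaled counts the macrophage genes had a median log2 fold change of -0.63, with 5 lower, 1 higher and 2 of the 6 called, where 44.9% of all tested genes were. From PN2 to PN14, however, 5 of the 7 erythroid genes were higher and 2 lower, with a median log2 fold change of 0.77. Endothelial (64.2 to 242) and adipocyte markers (372 to 639) had no order along the stages. Muscle fibre markers summed to 33581 FPKM at PN2 and 96874 to 131304 from PN14 on, in the direction of the paralogs. Of these 14 genes, 12 were higher from PN2 to PN14 and 5 were called so, while Myh3 (-4.16) and Myh8 (-7.1) were called lower. Over that interval 23.0% of all tested genes were called. The part of all these markers in the 4 genes' changes was not tested.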

How the data were processed

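Poly(A) RNA of 6 gastrocnemius libraries was sequenced as paired reads of 100 bases. The authors aligned them to mm9 with TopHat 2.0.5 and deposited expected counts per RefSeq gene from RSEM (version not given in the sources used here), not normalized, and FPKM from RSEM, normalized to gene length and library counts. After rounding, the expected counts went into edgeR 4.0.16 under R 4.3.3 (TMM, filterByExpr, quasi-likelihood test, all libraries and 5 stages in 1 fit, 1 residual degree of freedom). The common biological coefficient of variation was 0.188. Ratios used FPKM as deposited. Alternatives used DESeq2 1.42.0, library size, other filters and a pseudocount of 0.1 or 1 CPM.

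Coordinates and coding sequences came from GENCODE M1 with its genome, promoters from RefSeq. Copies were searched with BLAST 2.17.0 and read with Python 3.11.15 and Biopython 1.88. Genes named from each list were the called ones with the 3 largest changes, plus all of the shortest list, and for likeness the nearest 5, of which 1 is not reported here. Genes given as the ends of a range or as the few that moved one way were chosen after their values were seen. Mettl21b and Eif3j were listed but not matched. The 4 genes, the lists and the tests were chosen with earlier results of these data known.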

Additional observations from a re-analysis of the deposited data

How the results depend on the processing

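The signs and calls of the 4 genes' 24 log2 fold changes were the same under DESeq2's size factors and under a mean of at least 1 CPM. Library size alone reversed Eef1a2 from PN14 to PN28 (-0.12) and newly called Eef1a2 (1.26) and Rpl3l (1.33) from E18.5 to PN2, and Eef1a1 from PN2 to PN14 (-2.52) and to PN28 (-3.27). DESeq2's Wald test newly called the same 4, at 1.26, 1.33, -1.91 and -2.39, edgeR's exact test the last 3 of them, at 1.33, -1.90 and -2.38, and the fit without a filter on low counts Eef1a1 at -1.91 and -2.40. None of these alternatives lost a call. Genes called from E18.5 to PN2 numbered 5, and 241 with library size, 97 without a filter, 165 with DESeq2 and 346 with the exact test. From PN14 to PN28 they numbered 3, and 262, 56, 135 and 241. From PN28 to adult they numbered 88, and 868, 835, 808 and 1146, with 13 at a mean of at least 1 CPM. From PN2 to PN28 library size called 7151 (852 rose, 6299 fell). Leaving out a PN14 replicate gave a log2 ratio of Eef1a2 to Eef1a1 at PN14 of -0.32 without replicate 1 and 0.64 without replicate 2, so its direction at PN14 rests on a single mouse. The Rpl3l to Rpl3 ratio was 1.08 and 1.78. The cause of these shifts was not tested. No paired analysis was possible, because the libraries came from different mice.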
